A study of Mus musculus with 2 samples.

Results

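Interferon receptors and interferon-stimulated genes were read in neuron preparations from the dorsal root ganglia (DRGs) of mice given alum alone or alum + KLH. The set held 38 genes, picked by name for their place in the interferon response, out of 24411 genes in the deposited tables. A member was found by an exact match of its symbol, and the TPM (kallisto's length-corrected share of transcripts) of all its rows were added. No member lacked a row, and the 38 genes had 60 transcript rows between them. The mice were C57BL/6 males (C57BL/6J in the study's methods), 6 to 8 weeks old, given alum intraperitoneally on day 0 and day 14, and their DRGs were taken on day 28. The second group received keyhole limpet hemocyanin (KLH), a mollusc protein that serves as a foreign antigen, with the same adjuvant, so alum was common to both groups. Neurons from the thoracic and lumbar DRGs of 10 mice were pooled per group, after enzyme digestion, a density step and bead depletion of B lymphocytes, and each pool gave a single library. These are called the alum pool and the KLH pool here. The label of the alum pool also carries the word naïve, while the study's methods describe sequencing of alum-injected mice only. With 1 library per group there was no spread between mice to test against, so every difference below is between these 2 libraries and has no replicate check.

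Type I interferons bind a receptor made of IFNAR1 and IFNAR2, and interferon-gamma binds a receptor made of IFNGR1 and IFNGR2. Through the kinases JAK1, TYK2 and JAK2 the receptors activate transcription factors. A complex that holds STAT2 and IRF9 binds the interferon-stimulated response element (ISRE) after type I interferons, and the gamma-activated site (GAS) is bound after interferon-gamma. The genes switched on in this way encode antiviral proteins that recognize foreign RNA, block translation, hinder the entry or release of viruses or attack the vacuoles of intracellular microbes. Sensory neurons carry interferon receptors, and interferons are known to alter their excitability.

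The promoters of several members carry these elements, and 6 of them are printed because they belong to 4 of the most abundant members (Gbp2, Irgm1, Igtp and Ifit1), to Irgm2, which resembles Igtp, and to Isg15, which encodes the ISG15 modifier. They are RefSeq sequences on GRCm38.p6, the same assembly as mm10, and each run is the 150 bases just before the annotated start, on the strand of the gene. Capitals mark the ISRE core, which is GAAA, then any 2 bases, then GAAA, and the GAS core TTCNNNGAA. Both strands were searched, and overlapping matches run together.
Gbp2 (chr3:142620513-142620662, plus strand): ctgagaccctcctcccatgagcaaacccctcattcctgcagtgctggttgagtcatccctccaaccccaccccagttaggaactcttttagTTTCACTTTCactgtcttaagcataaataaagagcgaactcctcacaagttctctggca
Irgm1 (chr11:48871421-48871570, minus strand): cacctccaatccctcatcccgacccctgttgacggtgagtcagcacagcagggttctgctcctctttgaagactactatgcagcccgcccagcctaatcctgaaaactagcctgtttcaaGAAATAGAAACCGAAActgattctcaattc
Igtp (chr11:58199406-58199555, plus strand): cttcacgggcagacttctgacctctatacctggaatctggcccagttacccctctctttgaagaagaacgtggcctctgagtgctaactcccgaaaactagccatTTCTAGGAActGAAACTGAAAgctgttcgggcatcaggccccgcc
Irgm2 (chr11:58214827-58214976, plus strand): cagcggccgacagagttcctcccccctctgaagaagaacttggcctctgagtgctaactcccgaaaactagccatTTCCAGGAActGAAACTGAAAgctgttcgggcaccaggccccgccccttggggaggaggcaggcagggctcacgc
Ifit1 (chr19:34640739-34640888, plus strand): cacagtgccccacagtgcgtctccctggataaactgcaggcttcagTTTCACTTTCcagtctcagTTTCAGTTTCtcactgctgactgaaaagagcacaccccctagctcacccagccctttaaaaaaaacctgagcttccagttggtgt
Isg15 (chr4:156200819-156200968, minus strand): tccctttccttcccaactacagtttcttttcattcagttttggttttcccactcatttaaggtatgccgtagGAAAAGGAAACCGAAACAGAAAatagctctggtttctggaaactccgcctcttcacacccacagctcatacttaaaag
In the Gbp2 promoter the ISRE core began 59 bases before the RefSeq start, and in that of Irgm1 a pair of overlapping cores began 30 and 24 bases before it. The GENCODE transcript of Gbp2 starts at 142620602, within the printed run, so the place of its core relative to the start depends on the annotation. Isg15 had 3 overlapping cores, and Ifit1 had separate cores beginning 104 and 85 bases before the start. Igtp and Irgm2, which lie near each other on chromosome 11, both had a GAS core followed by an ISRE core. When the sequences of these neighbours were aligned on the ISRE core, 103 of 120 bases (85.8%) were identical.
Of the 38 members, 32 matched an entry of the promoter table, which reaches from 250 bases before to 50 bases after a start. Ifi27, Iigp1, Mx1, Mx2, Usp18 and Zbp1 had no entry. An ISRE core was present for 17 of the 32 genes (53.1%), whereas 3.99% of all 27025 symbols in the table had one (3.44% of 32851 promoters). A GAS core was present for 12 of the 32 (37.5%), against 9.55% of all symbols (8.30% of promoters). All 5 matched GBP and IRG GTPase genes had an ISRE core, and none of the 4 receptor genes did, while GAS cores lay in the windows of Ifnar1 and Ifnar2. These are matches of letters and not measured binding sites. The members were picked as interferon genes, so the shares are no independent test of the set.

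Most members were detected in both libraries. The threshold of 3 TPM, which the study used for detectable expression, was passed by 36 of 38 members in the alum pool and by 35 in the KLH pool, where 46.9% and 46.3% of all genes passed it. At a level of 10 TPM, 30 and 29 members passed, beside 34.3% and 33.8% of all genes. The median member was at 40.2 TPM in the alum pool and 37.3 TPM in the KLH pool, and the median over all genes that passed 3 TPM in the alum pool, the KLH pool or both was 24.2 and 23.5 TPM. The 8 members Gbp2, Iigp1, Irgm1, Ifit1, Ifi27, Igtp, Ifit3 and Eif2ak2 exceeded 100 TPM in each pool, a level reached by 8.83% of all genes in the alum pool and 8.80% in the KLH pool. The order of the members was nearly the same in the libraries, as 16 of them changed rank and none by more than 3 places. TPM is corrected for transcript length, so these levels can be set beside each other. Read counts are not part of the tables, and the counting error behind each value is unknown.

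**Figure D1:**
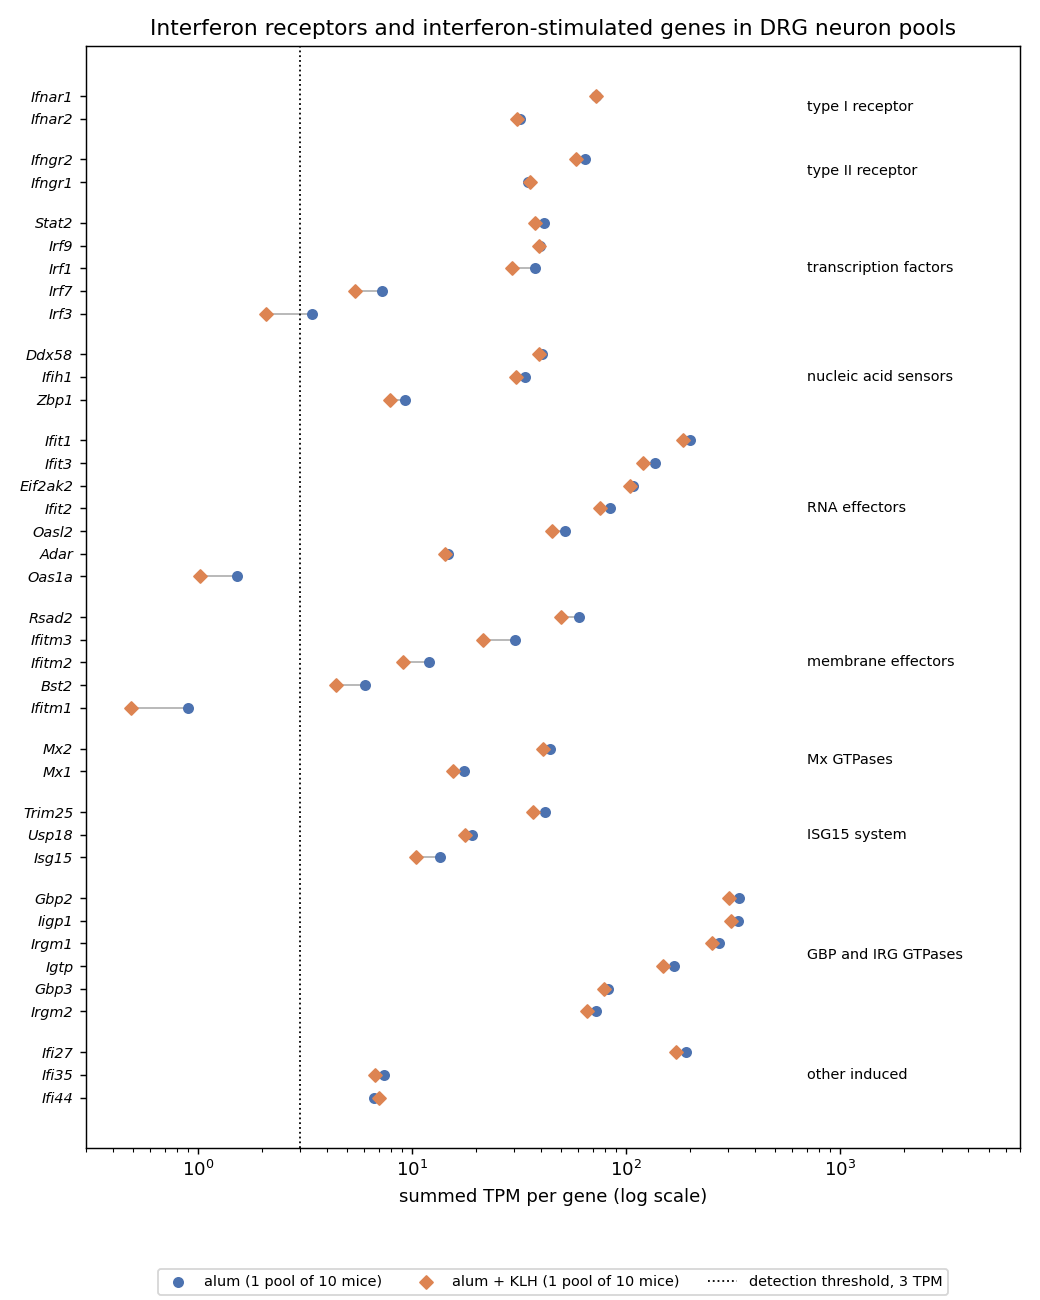
Summed TPM of the 38 members (x axis, log scale), grouped by role, with 1 circle for the alum pool and 1 diamond for the KLH pool. The GBP and IRG GTPases lie between 66.2 and 339.6 TPM, and Ifitm1 and Oas1a lie below the dotted line at 3 TPM in both pools.

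All 4 receptor genes were detected in each pool, between 31.1 and 72.4 TPM. Ifnar1 was the highest, with 72.4 TPM in the alum pool and 72.4 TPM in the KLH pool. Ifnar2, which encodes the other type I subunit, was at 32.1 and 31.1 TPM in the same order. For the interferon-gamma receptor, Ifngr1 (the ligand-binding chain) was at 35.1 and 35.5 TPM and Ifngr2 at 64.4 and 58.6 TPM. The receptor genes differed little between the libraries, with log2 ratios of (TPM + 1) in KLH over alum of 0.0011 for Ifnar1, -0.044 for Ifnar2, 0.018 for Ifngr1 and -0.13 for Ifngr2. Ifnar2 (chromosome 16, 91372783 to 91405589), Ifnar1 (91485032 to 91510523) and Ifngr2 (91547059 to 91564007) lie close together in GRCm38.
Ifnar2 is known to give rise to a soluble as well as a membrane-bound protein. Its shorter transcript, NM_001110498, with 7 exons and 1099 bases, carried 83.2% of the gene's TPM in the alum pool and 83.5% in the KLH pool. The longer NM_010509, with 9 exons and 3047 bases, was at 5.41 and 5.15 TPM. Of the 31-base stretches of NM_001110498, 26.7% also occur in an annotated transcript of another gene, Gm21970. Reads could have been divided between these genes only if both were among the transcripts quantified, which was not checked.

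The transcription factors that carry the signal differed widely in level. Stat2, part of the complex that type I interferons activate, was at 41.5 TPM in the alum pool and 37.8 TPM in the KLH pool. Its partner Irf9, the DNA-binding subunit, was at 39.6 and 39.3 TPM. Irf1, a factor induced by interferon-gamma, was at 37.8 and 29.5 TPM, and its log2 ratio of -0.35 exceeded the SD of 0.16 over the 500 genes closest in level. Irf7, the amplifier of interferon-alpha production, was lower at 7.28 and 5.40 TPM (log2 ratio -0.37, SD of neighbours 0.22). Irf3, which starts the induction of interferon-beta, was the lowest of the group at 3.42 and 2.09 TPM and was the only member above the threshold in the alum pool alone. Its log2 ratio of -0.52 was the lowest among the members that were detected, but genes at that level had an SD of 0.66.

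The cytosolic sensors of viral RNA were of middle level. Ddx58, which encodes RIG-I, was at 40.8 TPM in the alum pool and 39.5 TPM in the KLH pool. Ifih1, which encodes MDA5, was at 33.6 and 30.7 TPM. Zbp1, a sensor of nucleic acids in the Z conformation, was at 9.32 and 7.91 TPM.

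The RNA effectors included some of the most abundant members. Ifit1, whose protein binds viral RNA that lacks the host cap pattern, was at 201 TPM in the alum pool and 185 TPM in the KLH pool. Ifit3 was at 137 and 119.9 TPM. Ifit2 was at 84.5 and 75.6 TPM. These Ifit genes, which lie in 1 cluster on chromosome 19, had log2 ratios of -0.12, -0.19 and -0.16 in the order given. For Ifit3, 61.8% of the 31-base stretches are shared with its neighbour copy Ifit3b, so the division between the pair is uncertain. Eif2ak2, which encodes the translation-blocking kinase PKR, was at 108 and 104 TPM. Oasl2, an oligoadenylate synthetase-like gene, was at 52.1 and 45.2 TPM, whereas Oas1a was at 1.53 and 1.02 TPM, below the threshold. Oas1a shares 68.8% of its 31-base stretches with other genes, chiefly Oas1g. Adar, the adenosine-to-inosine editing enzyme, was at 14.8 and 14.3 TPM.

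Genes for membrane-associated antiviral proteins were lower in the KLH pool, each of the 5 with a log2 ratio between -0.48 and -0.28. Ifitm3, whose protein blocks virus entry from endosomes, was at 30.3 TPM in the alum pool and 21.5 TPM in the KLH pool. Its log2 ratio of -0.48 was 2.53 times the SD of 0.19 among the 500 genes of closest level. That SD was matched on level and not on length, and the Ifitm3 transcript has 678 bases. Ifitm2 was at 12.1 and 9.12 TPM (log2 ratio -0.37, SD of neighbours 0.35). Ifitm1 was at 0.90 and 0.49 TPM, below the threshold. These 3 genes lie near each other on chromosome 7, and 55.5% of the 31-base stretches of Ifitm2 occur in other annotated genes, against 20.5% for Ifitm3. Bst2, which encodes tetherin, a protein that holds budding virus at the cell surface, was at 6.05 and 4.41 TPM (log2 ratio -0.38, SD of neighbours 0.23). Rsad2, which encodes viperin, was at 60.6 and 49.6 TPM, and its log2 ratio of -0.28 compared with an SD of 0.12.

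The Mx genes encode dynamin-like GTPases that trap viral components. Mx2 was at 44.1 TPM in the alum pool and 41.1 TPM in the KLH pool, all of it on NR_003508, a row that RefSeq lists as noncoding. Its coding row NM_013606 was listed at 0 TPM in both pools. These Mx2 rows each have 14 exons, with 2421 bases for NR_003508 and 2417 for NM_013606, so the division between them is uncertain. For Mx1, at 17.6 and 15.6 TPM, the noncoding row NR_003520 carried 72.9% and 67.8%, and the remainder was on the coding row NM_010846. C57BL/6 mice are known for defective Mx genes.
In the ISG15 system, Isg15, the ubiquitin-like modifier, was at 13.5 and 10.4 TPM (log2 ratio -0.34, SD of neighbours 0.23). Usp18, the protease that removes ISG15 and restrains receptor signalling, was at 19.1 and 17.7 TPM. Trim25, a ubiquitin ligase that acts on RIG-I, was the highest at 41.8 and 36.8 TPM.

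The guanylate-binding proteins (GBP) and immunity-related GTPases (IRG), which interferon-gamma strongly induces and which attack pathogen vacuoles, were the most abundant group. Together the 6 genes reached 1268 TPM in the alum pool and 1166 TPM in the KLH pool, out of 2735 and 2494 TPM for all 38 members. Gbp2 was the highest at 339.6 and 305 TPM, a level exceeded by 2.38% of all genes in the alum pool. Iigp1 followed at 334 and 312 TPM, and was the highest member in the KLH pool. Irgm1, a regulator of the other IRG proteins, was at 271 and 253 TPM. Igtp was at 168 and 150.1 TPM, Gbp3 at 82.8 and 79.5 TPM, and Irgm2 at 72.5 and 66.2 TPM. All 6 had log2 ratios below 0, from -0.16 for Igtp to -0.058 for Gbp3, and all but Gbp2 stayed within the SD of genes of similar level. Igtp and Irgm2 share 16.4% and 8.22% of their 31-base stretches with each other. The shares with other genes were 10.8% for Ifit1, 11.6% for Iigp1, 12.1% for Mx2, 13.1% for Isg15, 13.4% for Ifi35 and 14.7% for Ifitm1, and under 10% for every member not named with a share here.
The other members ranged widely. Ifi27, a small mitochondrial and nuclear envelope protein gene, was at 191 and 172 TPM. Ifi35 was at 7.42 and 6.73 TPM. Ifi44 was at 6.63 and 7.05 TPM, and its log2 ratio of 0.077 was the highest among the members.

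The libraries were close for each member, but nearly all differences pointed the same way. Of the 36 members detected in either pool, 0 were at least 1.5-fold higher in the KLH pool and 0 at least 1.5-fold lower, where 1.00% and 1.55% of all 11648 genes so detected were. The count of lower members was 1 with a pseudocount of 0.5 or 0.1 TPM, where Irf3 passed the limit, and 1 with the highest transcript of each gene, where Irf7 did at a log2 ratio of -1.25. With summed TPM and the pseudocount of 1 TPM, at the 2-fold limit, which 0.695% of all genes passed upward and 0.944% downward, the members also gave 0 and 0. A log2 ratio below 0 was found for 33 of the 36 members, and for 56.4% of all genes. The 3 with a ratio above 0, which 43.6% of all genes had, were Ifnar1, Ifngr1 and Ifi44. Relative to the housekeeping gene Hprt the split was 35 of 36 members and 79.3% of all genes below 0, and after rescaling to a common median it was 32 of 36 and 49.7%. The median log2 ratio of the members was -0.13 (range -0.52 to 0.077), beside -0.020 over all 11648 genes. A group of 14 members was lower in the KLH pool by more than 1 SD of their 500 neighbours in level, as 11.0% of all genes were, and none was higher by that much, as 6.05% of all genes were. Irf1, Ifitm3 and Rsad2, 3 of these, were lower by more than 2 SD, which held for 2.83% of all genes, and 0 were higher by that much, as 1.49% of all genes were. For Irf1 the direction turned to a log2 ratio of 0.28 when only the highest transcript of each gene was read. For Ifitm3, whose transcript is under 1 kb, the difference was smaller than the SD of 1.09 over all 1090 genes of that length. That SD pools all levels above 3 TPM, and the 500 genes closest to Ifitm3 in level had an SD of 0.19. The members share regulators and libraries and are not independent, and the pools carry no error between mice, so these counts describe the 2 libraries.

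**Figure D2:**
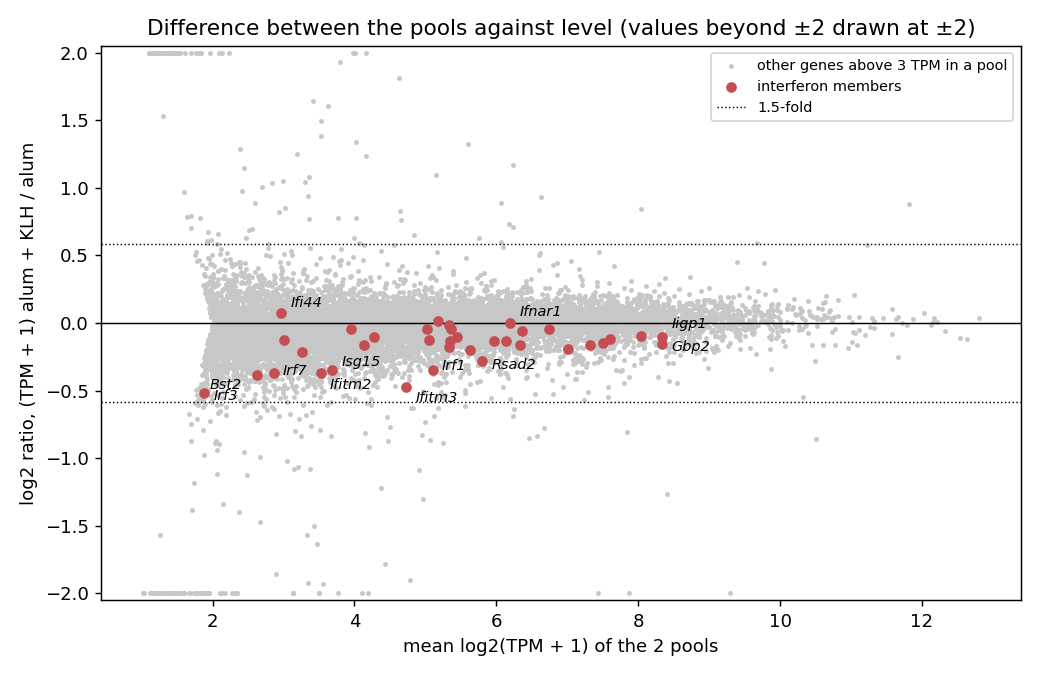
Log2 ratio of (TPM + 1), KLH pool over alum pool (y axis), against the mean log2(TPM + 1) of the pools (x axis) for all genes detected in either pool, in grey, and the 36 members, in red. Values beyond 2 in either direction are drawn at that limit, all red points lie between the dotted 1.5-fold lines, and 33 of them lie below 0.

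The median ratio over all genes was lower for shorter transcripts, whereas among the members only the class under 1 kb stood apart. Over all genes with a length in the annotation (98.0% of those above 3 TPM), the median log2 ratio was -0.074 for main transcripts under 1 kb, -0.032 from 1 to 2 kb, -0.018 from 2 to 4 kb and -0.0099 over 4 kb. The 6 members under 1 kb, Ifitm2, Ifitm3, Ifi27, Isg15, Zbp1 and Bst2, had a median of -0.36 and were all lower in the KLH pool. The ratios of all 1090 genes under 1 kb had an SD of 1.09, beside 0.19, 0.15 and 0.13 in the longer classes in order. Above 1 kb the medians were -0.12 for 5 members from 1 to 2 kb, -0.12 for 21 from 2 to 4 kb and -0.13 for 4 over 4 kb. Without the 6 short members the median of the other 30 was -0.13, with 27 below 0. The part of transcript length in the difference was not tested.

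**Figure D3:**
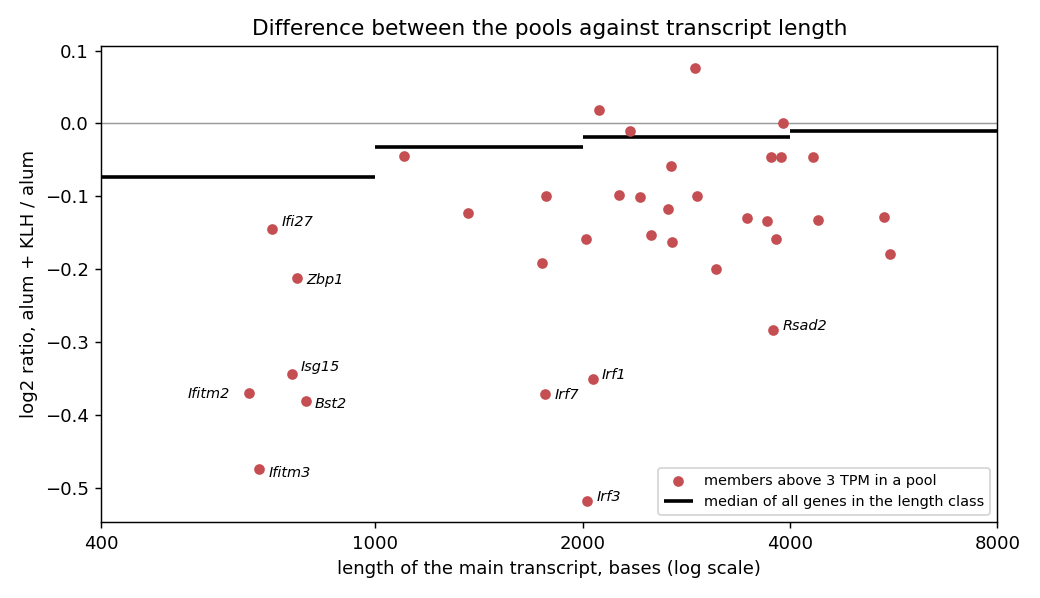
Log2 ratio of KLH over alum (y axis) against the length of the main transcript in bases (x axis, log scale) for the 36 members, with black bars at the median of all genes in each length class. The members under 1 kb have a median of -0.36, and the bar for all genes of that class is at -0.074.

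The wider pathway was read from lists that the members are not in. Among 21 genes for interferon ligands and further receptors, 16 were listed at 0 TPM in both pools, including every interferon-alpha gene in the list. The remaining ligands were at trace values, with Ifnb1 at 0.095 and 0 TPM, Ifng at 0 and 0.049 TPM, and Ifnk at 0.088 and 0.38 TPM (alum, then KLH). Il10rb, a subunit of the interferon-lambda receptor, was at 83.4 and 84.3 TPM, whereas its partner Ifnlr1 was at 1.47 and 1.43 TPM. Most of the receptors' signalling genes were detected. Jak1 was at 399 and 415 TPM and Jak2 at 79.8 and 79.5 TPM, but Tyk2, the kinase bound to IFNAR1, was below the threshold at 1.02 and 1.09 TPM. In all, 11 of 15 signalling genes and 7 of 14 nucleic acid sensing genes passed 3 TPM in each pool, where 46.9% of all genes passed it in the alum pool and 46.3% in the KLH pool.
Of 38 further interferon-stimulated genes, 29 passed the threshold in the alum pool and 27 in the KLH pool. Cxcl10, the chemokine that attracts activated T lymphocytes, was the highest of them at 291 TPM in the alum pool and 336 TPM in the KLH pool. Its log2 ratio of 0.20 was the highest in the list, where 25 of 29 detected genes had a ratio below 0, beside 56.4% of all detected genes. Lgals3bp, at 11.1 and 7.98 TPM, had the lowest ratio, -0.42. Among 23 further interferon-gamma-inducible genes, 15 and 16 passed the threshold. B2m, the light chain of MHC class I, led at 975 and 900.4 TPM, followed by Ifi47 at 125 and 109 TPM and Gbp6 at 120.2 and 107 TPM. Over the 5 lists, 64 of 111 genes were detected in either pool, 51 of them with a ratio below 0 and none past 1.5-fold, and their median log2 ratio was -0.091. Of all 24411 genes, 11648 were so detected, with 56.4% below 0 and a median of -0.020. Of these, 1.00% were at least 1.5-fold higher in the KLH pool and 1.55% at least 1.5-fold lower.

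**Figure D4:**
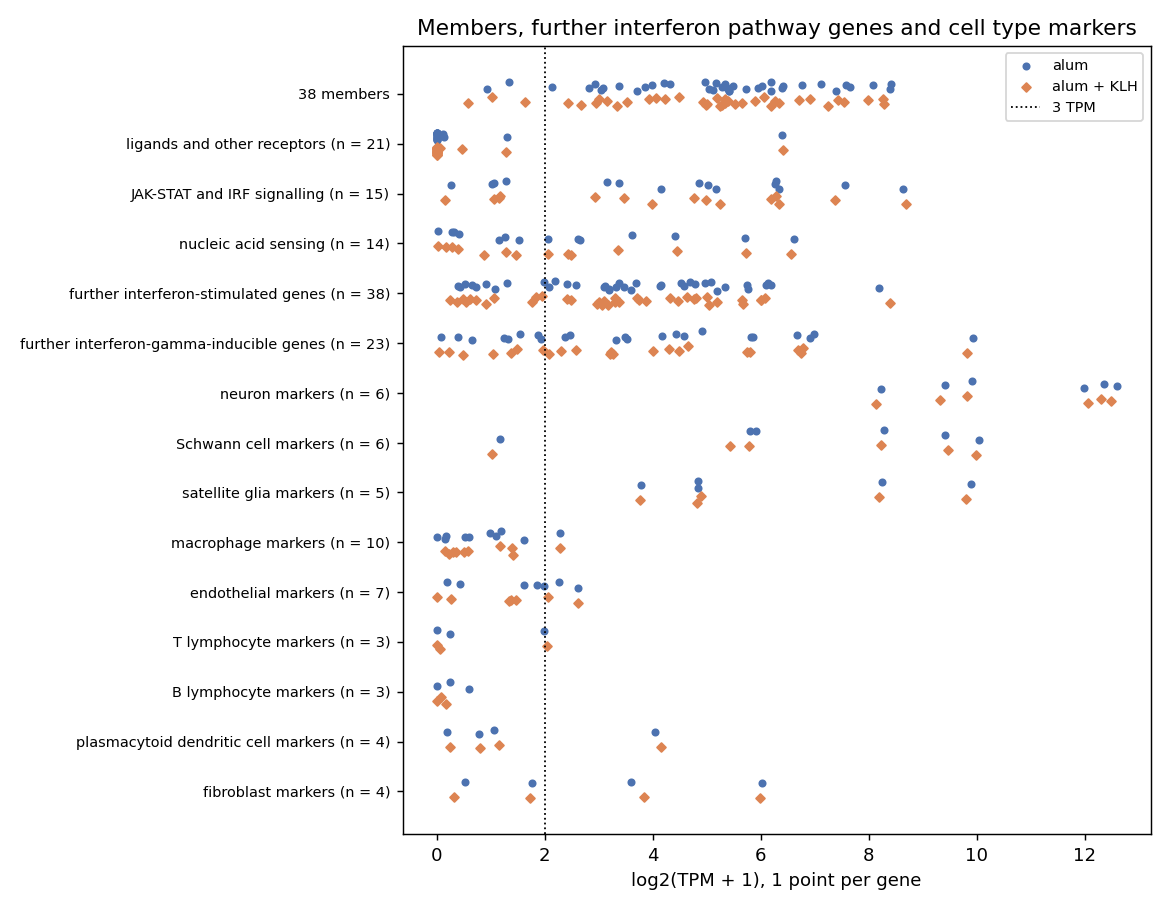
Level of each gene as log2(TPM + 1) on the x axis for the 38 members, the 5 further pathway lists and the 9 cell type marker lists, with circles for the alum pool and diamonds for the KLH pool. Apart from Il10rb, the ligand and receptor list lies left of the dotted line at 3 TPM, as do most macrophage, endothelial and lymphocyte markers.

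Marker genes show which cells the pools could hold. All 6 neuronal markers, led by Calca, were above 3 TPM and summed to 17440 TPM in the alum pool and 16882 TPM in the KLH pool. The 5 satellite glia markers summed to 1323 and 1249 TPM, and the 6 Schwann cell markers to 2170 and 2130 TPM, so glial RNA was present too. Of 10 macrophage markers only Lyz2 passed 3 TPM, and the 10 summed to 10.6 and 10.1 TPM, with 7 lower in the KLH pool and C1qb at 0 in the alum pool. The 7 endothelial markers summed to 17.0 and 13.4 TPM, 2 above the threshold, all 7 lower in the KLH pool and Cldn5 at 0 there. Also lower there were 5 of 6 neuronal, 5 of 6 Schwann cell, 4 of 5 satellite glia and 3 of 4 fibroblast markers. The same held for 1 T lymphocyte, 2 B lymphocyte and 0 plasmacytoid dendritic cell markers. Of all genes detected in either pool 56.4% had a log2 ratio below 0, and most macrophage and endothelial markers were under 3 TPM. Fibroblast markers summed to 77.8 and 78.4 TPM, mostly from Dcn. The T and B lymphocyte markers Cd3g and Cd79b were at 0 in both pools, 1 of 3 T lymphocyte markers (Cd3d, in the KLH pool) and none of 3 B lymphocyte markers passed 3 TPM, and the lists summed to 3.15 and 3.17 TPM and to 0.70 and 0.19 TPM. Of 4 plasmacytoid dendritic cell markers, Tcf4, which other cells express too, made up most of the 17.4 and 19.0 TPM. The part of these cells in the interferon genes was not tested, and in pooled tissue fewer cells of a type and less RNA per cell cannot be told apart.

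Single transcripts of Adar, Irf1, Irf7 and Ifih1 differed between the libraries by more than, or in another direction from, their gene totals. For Adar, NM_001038587, which starts at 89715022 on chromosome 3, was at 5.84 TPM in the alum pool and 0.83 TPM in the KLH pool. NM_001146296, which starts downstream at 89730748, was at 2.62 and 6.37 TPM. The third transcript, NM_019655, with the same start, was at 6.32 and 7.09 TPM, and the sum differed by a log2 ratio of -0.046. Only 2.18% of the 31-base stretches of NM_001038587 are found in no other Adar row, and none of those of NM_001146296 are.
For Irf1, NM_008390 was at 19.2 TPM in the alum pool and 6.54 TPM in the KLH pool, whereas NM_001159396 was at 18.2 and 22.3 TPM. The stretches found in that row alone were 1.76% for NM_008390 and 9.56% for NM_001159396. For Irf7, NM_001252600 held all of the 7.28 TPM in the alum pool and 2.49 TPM in the KLH pool, and NM_001252601 was listed at 0 and 2.91 TPM. Stretches found in 1 Irf7 row alone made up 1.67% of NM_001252600 and 22.8% of NM_001252601. Ifih1 was split between NM_027835, at 20.2 and 15.5 TPM, and NM_001164477, at 13.5 and 15.2 TPM. Here the shares found in 1 row alone were 34.5% for NM_027835 and 0.67% for NM_001164477. A different use of transcripts and a different division of the same reads by the quantification cannot be told apart in these values.
The other members with several transcripts above 10% of the gene had a steadier split. Iigp1 was mainly NM_021792, with 78.5% in the alum pool and 80.5% in the KLH pool. Gbp3 was split between NM_001289493, at 60.9% and 56.2%, and NM_018734. The latter, at 32.0 TPM in the alum pool and 34.5 TPM in the KLH pool, went against the direction of the gene total. So did the Mx1 row NM_010846, at 4.76 and 5.02 TPM. Ifi27 was carried by NM_194069, at 131 and 118 TPM, and NM_026790, at 58.4 and 54.2 TPM. Zbp1 was shared almost evenly by NM_001139519, at 5.02 and 4.10 TPM, and NM_021394, at 4.30 and 3.81 TPM.

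**Figure D5:**
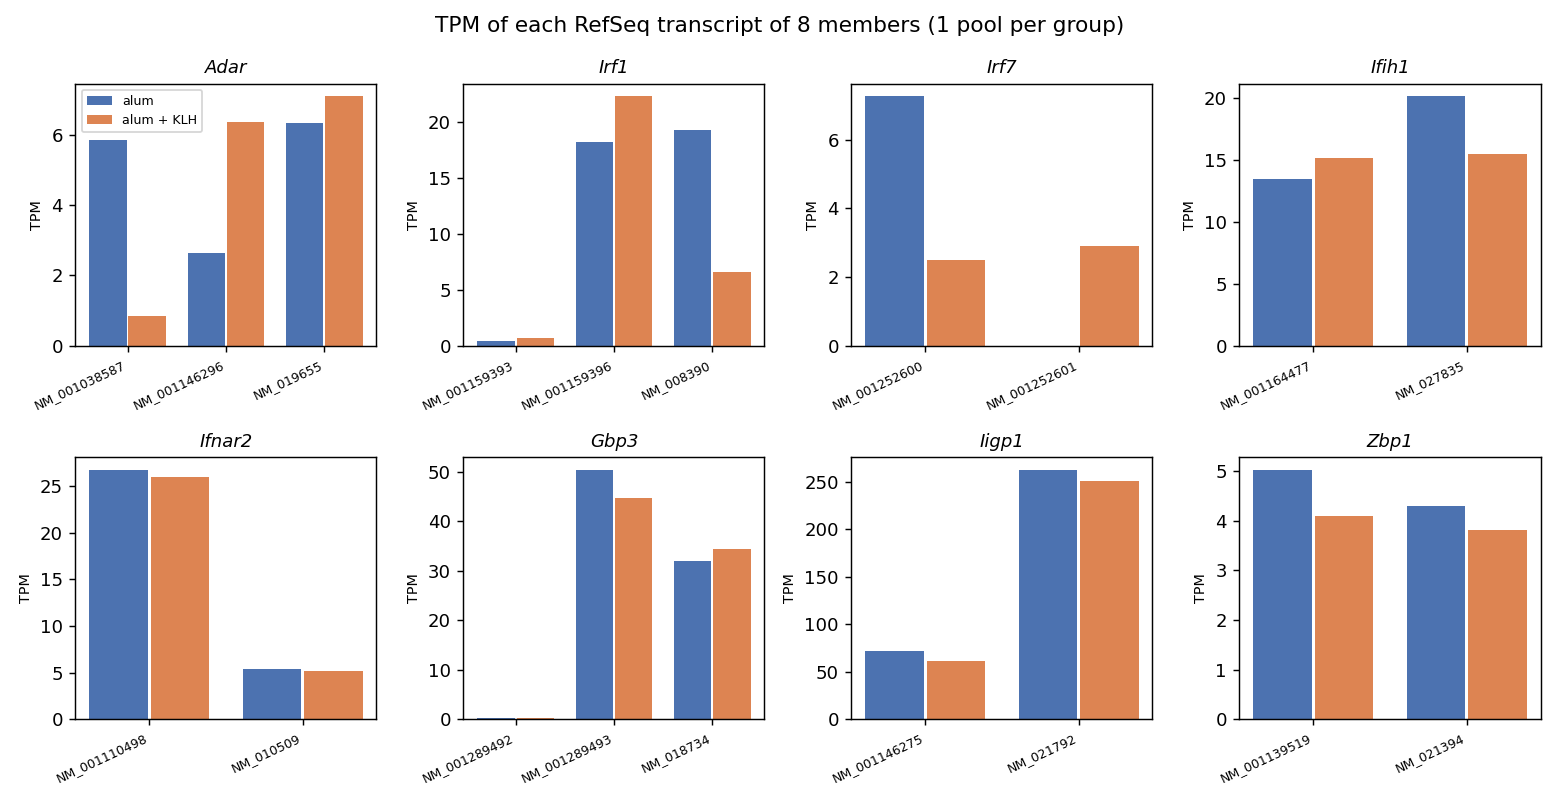
TPM (y axis) of each RefSeq transcript above 0 TPM (x axis) for 8 members with several rows, with bars for the alum pool and the KLH pool, starting at 0. The Adar, Irf1 and Irf7 panels show rows that exchange rank between the pools, while Ifnar2, Iigp1 and Zbp1 keep their order.

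Members with an ISRE core in the promoter window were found over the whole range of levels. The 17 such genes ran from 1.53 to 339.6 TPM in the alum pool with a median of 60.6 TPM, and from 1.02 to 305 TPM in the KLH pool with a median of 49.6 TPM. The 15 matched members without the core ran from 0.90 to 84.5 TPM (median 35.1) and from 0.49 to 75.6 TPM (median 31.1). Gbp2, the highest of these genes, and Oas1a, one of the lowest, both had the core.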

How the data were processed

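Both libraries were TruSeq stranded mRNA preparations sequenced as paired ends. Per the labels and the study's methods, the authors trimmed reads with cutadapt and quantified them with kallisto on the mm10 transcriptome (versions not given in the sources used here). Each deposited table gives TPM for RefSeq transcripts and no read counts, so intervals and count tests were out of reach. How kallisto divided reads among similar transcripts is fixed in the values.

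TPM was summed per symbol. Differences are log2((TPM + 1) in KLH / (TPM + 1) in alum), which understates the change of low genes, and each was set beside its SD over the 500 genes closest in mean log2(TPM + 1). Calls at 1.5-fold and 2-fold covered genes that passed 3 TPM in either pool. No p-value was computed. Lengths, exons and shared 31-base stretches came from GENCODE M21 (GRCm38), gene positions and promoters from RefSeq. GENCODE may hold genes that are not among the RefSeq transcripts quantified, so a shared stretch need not have divided reads. The alternatives were pseudocounts, filters, detection thresholds, the highest transcript, a common median and Hprt. Python 3.11.15, numpy 2.4.6, pandas 2.3.3 and matplotlib 3.10.9 were used, and the steps were tested on simulated data.

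The members and lists were chosen with earlier results of these data known. Every member was named. Transcripts were named where several rows of a gene each held over 10% of its TPM, further pathway genes above 10 TPM in either pool, and of each cell type's markers the highest and those at 0. Interferon ligands, Ifnlr1 and Tyk2 were named outside this rule, after their values were seen, and so were the promoters printed.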

Additional observations from a re-analysis of the deposited data

How the results depend on the processing

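With 1 pooled library per group, no direction here has a check against the spread between mice, and without read counts the precision of low genes such as Irf3, Bst2 and Oas1a is unknown. The median log2 ratio of the members stayed below 0 under each alternative, from -0.22 with TPM relative to Hprt to -0.11 with the KLH pool rescaled to a common median. The count of members with a ratio below 0 was 32 of 36 under that rescaling, where 49.7% of all genes were below 0, and 35 of 36 relative to Hprt, where 79.3% of all genes were and their median log2 ratio was -0.10. It was 30 of 36 with the highest transcript of each gene, where 55.5% of all genes were. These counts under the alternatives, and leaving out members under 1 kb, were chosen after seeing the data.
The count of members at least 1.5-fold lower in the KLH pool moved from 0 to 1 with a pseudocount of 0.5 TPM and to 1 with 0.1 TPM, in both cases Irf3 (log2 ratio -0.60 and -0.69), and to 1 with the highest transcript, which was Irf7 at -1.25. The count of members 1.5-fold higher stayed at 0 in each. Of 282 values for single members under the alternatives, 279 moved by less than the SD of genes of similar level, and the 3 others were Ifih1 at -0.36, Irf1 at 0.28 and Irf7, all with the highest transcript. Sign changes arose 6 times, for Adar, Ifnar1, Ifngr1, Irf1 and Irf9. With detection set at 10 TPM, 30 members passed in the alum pool and 29 in the KLH pool. No paired analysis was possible because each group holds a single library.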
